A study of Mus musculus with 2 samples.

Results

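Pericytes of the mouse tibialis anterior (TA) muscle were described in 2 single-cell libraries, 1 labelled WT and 1 labelled KO, named by those labels below. A barcode was kept with at least 500 genes, at least 1000 UMIs (unique molecules counted) and at most 10% mitochondrial UMIs. A kept barcode was called a pericyte with at least 3 UMIs summed over Kcnj8, Abcc9 and Higd1b from at least 2 of these genes, at most 1 UMI of Myh11 plus Pln, and no UMI of Ptprc, Pdgfra or Cdh5. This gave 424 pericytes among 27383 kept barcodes, of 30891 deposited. The WT library held 192 of them and the KO library held 232. The counts of those 8 genes chose the cells, so their values are given as a description only. Smooth muscle barcodes, with at least 4 UMIs of Myh11 plus Pln, were the main comparison, at 974 and 1642 barcodes.

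Each library pooled 10 TA muscles of 5 male mice of its strain, freshly isolated, with a genotype given only as WT or KO. The series title concerns autocrine IGF-I, but the labels used here do not state which gene or exon was altered in the KO strain, in which cells, or the age of the mice. The labels name the cells FAPs (fibro-adipogenic progenitors) from ND muscle, an abbreviation they do not spell out. Viability was the only sort stated, after digestion for 1 h and lysis of red cells, so cells of the vessel wall were present as well. With 1 library per genotype, genotype and library cannot be told apart, replicates are lacking for each difference below, and no test was run.

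Pericytes sit on capillaries and small venules inside the basement membrane of the endothelium. They are recruited by PDGF-B from endothelial cells through the receptor Pdgfrb, and Notch3 is a receptor they share with arterial smooth muscle. They carry a potassium channel gated by ATP, whose pore is encoded by Kcnj8 and whose sulfonylurea receptor is encoded by Abcc9, while smooth muscle cells hold the contractile proteins encoded by Myh11, Cnn1 and Acta2.

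Promoter sequences are shown for the pore and regulatory subunits of that channel, for Vtn and Rgs5, which were not used to choose the cells, and for Acta2, a smooth muscle gene. Each stretch comes from the RefSeq promoter table of build GRCm38.p6 and runs 5′ to 3′ on the gene's strand, from 250 bases before the annotated start to 20 bases after it. Capitals mark TGGGAA, the core motif bound by RBPJ, the DNA-binding partner of Notch receptors, or its reverse complement.
Kcnj8, chr6:142571595-142571864, minus strand: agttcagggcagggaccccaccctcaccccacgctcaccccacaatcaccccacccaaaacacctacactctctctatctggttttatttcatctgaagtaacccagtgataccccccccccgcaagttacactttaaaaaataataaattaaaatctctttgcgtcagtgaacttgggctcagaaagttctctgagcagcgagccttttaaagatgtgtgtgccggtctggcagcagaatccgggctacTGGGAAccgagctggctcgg
Abcc9, chr6:142702255-142702524, minus strand: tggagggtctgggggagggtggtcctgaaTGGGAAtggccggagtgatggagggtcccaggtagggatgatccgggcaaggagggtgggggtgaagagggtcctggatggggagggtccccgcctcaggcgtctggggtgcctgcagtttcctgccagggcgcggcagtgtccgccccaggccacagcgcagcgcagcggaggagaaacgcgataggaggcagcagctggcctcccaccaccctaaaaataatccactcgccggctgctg
Vtn, chr11:78498870-78499139, plus strand: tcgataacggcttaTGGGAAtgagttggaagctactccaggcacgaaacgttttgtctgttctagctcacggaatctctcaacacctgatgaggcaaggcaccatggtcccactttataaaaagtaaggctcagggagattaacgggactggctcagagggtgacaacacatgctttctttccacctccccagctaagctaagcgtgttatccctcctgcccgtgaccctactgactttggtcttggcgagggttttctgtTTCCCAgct
Rgs5, chr1:169655251-169655520, plus strand: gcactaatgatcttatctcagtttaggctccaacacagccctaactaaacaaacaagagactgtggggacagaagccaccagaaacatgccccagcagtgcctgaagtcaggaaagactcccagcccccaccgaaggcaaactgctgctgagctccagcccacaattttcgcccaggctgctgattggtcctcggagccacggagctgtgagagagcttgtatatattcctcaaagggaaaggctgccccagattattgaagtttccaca
Acta2, chr19:34255354-34255623, minus strand: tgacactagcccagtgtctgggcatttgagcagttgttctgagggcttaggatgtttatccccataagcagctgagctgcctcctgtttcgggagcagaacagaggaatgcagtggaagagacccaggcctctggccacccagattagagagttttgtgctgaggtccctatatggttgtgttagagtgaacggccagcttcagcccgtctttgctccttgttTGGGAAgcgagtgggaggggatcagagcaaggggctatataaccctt
Kcnj8 and Abcc9 thus start on the same strand of chromosome 6, close to each other. Within the stretches shown, TGGGAA occurred 1 time for Kcnj8, 1 time for Abcc9, 2 times for Vtn, 0 times for Rgs5 and 1 time for Acta2.

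The libraries differed in depth and in the number of cells. Kept barcodes numbered 9732 in the WT library and 17651 in the KO library, with medians of 3089 and 4481 UMIs. Pericytes had medians of 2275 UMIs (range 1041 to 6960) and 3682.5 UMIs (1038 to 12604), and summed to 475591 and 943422 UMIs. The libraries shared 61 barcodes, and 0 of them were pericytes. The doublet caller marked 0.836% and 3.49% of all barcodes, below the expected 4.54% and 7.81%, and marked 1 and 10 pericytes, so doublets may remain. Intervals below are exact, at 95%, and cover counting error only.

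Pericytes made up 1.97% of kept barcodes in the WT library (Clopper-Pearson interval 1.71 to 2.27%) and 1.31% in the KO library (1.15 to 1.49%). The direction of this difference depended on the gate. For an alternative, barcodes under 2000 UMIs were left out and the rest were thinned to 2000 UMIs before the rule was applied. This kept 7239 barcodes of the WT library and 13745 of the KO library. The shares were then 2.20% (1.87 to 2.56%) and 3.11% (2.83 to 3.42%). Log2 ratios given below as after thinning also leave out the shallower barcodes. With a wider gate that asked only for fewer UMIs of Myh11 plus Pln than of the 3 pericyte genes, they were 5.51% (536 barcodes) and 5.79% (1022 barcodes). A limit of 1 UMI is stricter in a deeper library, and no order of the pericyte shares is read from these values.

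The condition on the summed UMIs of the pericyte genes took the kept barcodes to 840 in the WT library and 1866 in the KO library. In the WT library, 610 barcodes met the other conditions, of which 192 (31.5%) had 0 or 1 UMI of Myh11 plus Pln, 164 had 2 or 3 and 254 had 4 or more. In the KO library these counts were 232 of 1142 (20.3%), 249 and 661. Pln itself was at 0 UMIs in pericytes of both libraries, so the single UMI that the rule admits was always of Myh11.

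The levels of pericyte and contractile genes were followed across the limit on Myh11 plus Pln. Rgs5, a regulator of G protein signalling and a common pericyte marker, was at 10346.5 CPM (UMIs scaled to the summed total of the group) with no Myh11 or Pln UMI in the WT library. It was at 12607.5 CPM with 1 such UMI, 12816 CPM with 2 and 11699 CPM with 3. In the KO library the same steps gave 9492, 10223, 10617 and 11895 CPM. Cnn1, which encodes the smooth muscle protein calponin, had no UMI up to 3 UMIs of Myh11 plus Pln in the WT library, and 1.65 CPM at most in the KO library. With 4 or more it was at 28.7 and 30.8 CPM. Acta2, encoding smooth muscle actin, was at 727 and 923 CPM with 3 UMIs and at 1367 and 1534 CPM with 4 or more. Vtn, in the KO library, was at 704 and 819 CPM with 0 and 1 UMI and at 936 and 1186 CPM with 2 and 3, so it stood higher just outside the limit there. In the WT library it was at 1182 and 1290 CPM inside, and 1219 and 1349 CPM just outside.

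**Figure D1:**
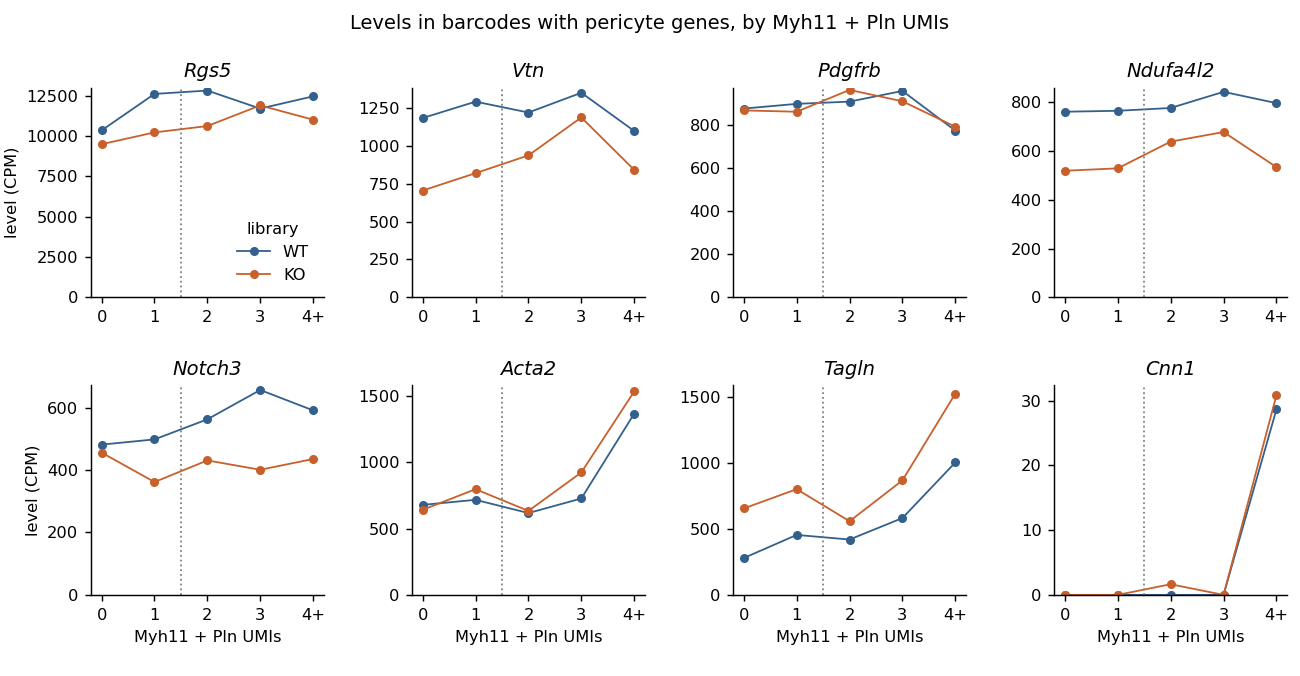
Level of 8 genes in CPM (y axis, linear from 0, a scale for each gene) in barcodes that met every other condition of the rule, by UMIs of Myh11 plus Pln (x axis), in each library. Dotted lines mark the limit of the rule. Vtn in the KO library is higher at 2 and 3 UMIs (936 and 1186 CPM) than at 0 and 1 (704 and 819 CPM), and Cnn1 reaches 28.7 and 30.8 CPM only at 4 or more.

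The other edge of the rule was less even. In the WT library the 22 pericytes with exactly 3 UMIs of the pericyte genes had Rgs5 at 7928 CPM and Vtn at 822 CPM, against 12198 and 1300 CPM in the 170 with 4 or more. In the KO library the 18 pericytes at exactly 3 UMIs had Rgs5 at 2277 CPM and Vtn at 67.0 CPM, against 10294.5 and 806 CPM in the other 214. Those 18 barcodes thus held far less of the pericyte genes outside the rule than the rest of their library's pericytes. Barcodes with 2 UMIs, just outside, had Rgs5 at 5737 and 3448 CPM.

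All 3 positive genes were found in 77 pericytes of the WT library and 95 of the KO library. Kcnj8 and Abcc9 without Higd1b were found in 88 and 115, Abcc9 with Higd1b in 23 and 18, and Kcnj8 with Higd1b in 4 and 4. Kcnj8 (ENSMUSG00000030247) was at 923 CPM (exact Poisson interval 839 to 1014) and 806 CPM (749 to 865). Abcc9 (ENSMUSG00000030249) was at 2721 CPM (2575 to 2873) and 2204 CPM (2110 to 2300.5). Higd1b (ENSMUSG00000020928), a mitochondrial hypoxia-inducible domain protein, was at 385 CPM (331 to 445) and 240 CPM (209 to 273). In leukocyte barcodes, with at least 2 UMIs of Ptprc, Kcnj8 was at 0.79 CPM and Abcc9 at 1.98 CPM in the WT library.

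The marker that the rule did not use was found in nearly all pericytes. Rgs5 (ENSMUSG00000026678) was at 11739 CPM in the WT library and 9914 CPM in the KO library, with a UMI in 99.5% and 98.3% of pericytes. It was missing from 1 and 4 pericytes. Leukocyte barcodes, deeper with medians of 4189.5 and 7285 UMIs, had an Rgs5 UMI in 5.85% and 17.5%. With barcodes thinned to 1500 UMIs, and 31 and 21 shallower pericytes left out, the shares were 99.4% and 98.1% in pericytes and 1.46% and 5.57% in leukocyte barcodes. Smooth muscle barcodes also held Rgs5, at 5355 and 6554 CPM, as did endothelial barcodes at 584 and 730 CPM. An Rgs5 UMI was found in 76.9% and 89.0% of smooth muscle barcodes, or 72.3% and 82.9% after thinning. Detection of Rgs5 thus set pericytes apart from leukocyte barcodes, and much less from smooth muscle barcodes.

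Further pericyte genes were read from a list of 28 that the rule did not use. Of these, 23 were at 20 CPM or more in both libraries and 1, Kcnk3, was at 0 UMIs in both. Per barcode the list took a median of 272 of every 10000 UMIs in pericytes of the WT library (quartiles 216 and 316) and 212 in those of the KO library (157 and 259). The lowest pericyte of the WT library had 60.5, and 16 pericytes of the KO library had less than that. The 2 groups of pericytes overlapped over most of their range.

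The contractile list of 30 genes took medians of 113 and 120 UMIs per 10000 in pericytes, and 217 and 168 in smooth muscle barcodes. Pericyte list UMIs outnumbered contractile UMIs in 178 of 192 pericytes (92.7%) and 186 of 232 (80.2%). They also did so in 367 of 974 smooth muscle barcodes (37.7%) and 789 of 1642 (48.1%). At least 3 UMIs of the pericyte genes of the rule were found in 354 smooth muscle barcodes (36.3%) of the WT library and 986 (60.0%) of the KO library. The smooth muscle barcodes were thus a mixture of barcodes with and without pericyte UMIs, which the plot of both lists shows as 2 clouds of points.

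**Figure D2:**
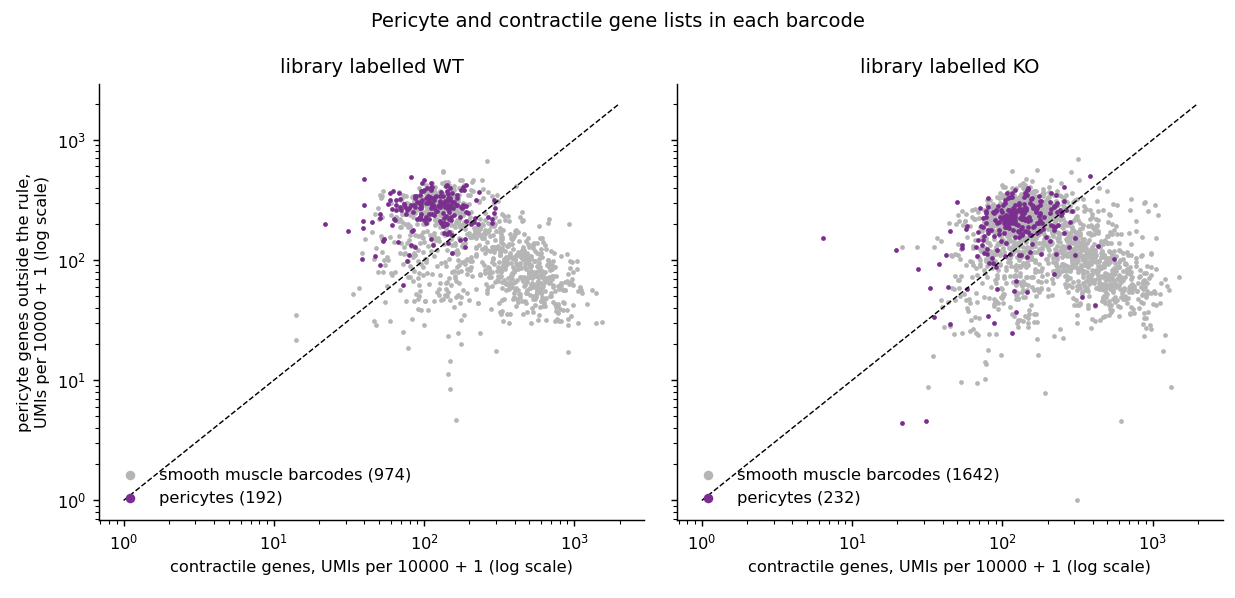
Each point is 1 barcode, with UMIs per 10000 of the contractile list (x axis) and of the pericyte list outside the rule (y axis), 1 added to each, on log scales. Pericytes (purple) lie mostly above the dashed line of equality, 178 of 192 and 186 of 232, and smooth muscle barcodes (grey) form a cloud among the pericytes and another below the line.

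RNA of other cell types was present at different levels in the 2 libraries. Markers of myofibres, the muscle cells themselves, summed to 414 CPM over 8 genes in pericytes of the WT library and 2807 CPM in those of the KO library. Of the latter, 88.3% came from 8 barcodes, the highest of which had 11.6% of its UMIs from these genes. Haemoglobin and other erythroid markers had a UMI in 2.08% and 38.4% of pericytes. The 9 leukocyte markers outside the rule had a UMI in 0.521% and 16.8%, and 8 of them were at 0 in the WT library. The 9 endothelial markers outside the rule summed to 1100 CPM and 1406 CPM, against 13223 and 15849 CPM in endothelial barcodes. The 8 markers of FAPs and fibroblasts other than Pdgfra summed to 767 and 683 CPM, of which 2 and 3 barcodes gave 61.1% and 58.4%. The part of this RNA in the differences below was not tested beyond the values without the barcodes that hold at least 1% of their UMIs from markers of another class.

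Pericytes and smooth muscle barcodes were compared within each library. Since the rule parts them by Myh11 and Pln, this is a description with no test. The smooth muscle barcodes with at most 1 UMI of the 3 pericyte genes and none of Ptprc, Pdgfra or Cdh5, 506 and 469 of them, were added after the data were seen. They are called smooth muscle barcodes without pericyte UMIs below, although 1 UMI was allowed. Low counts of the pericyte genes chose this set, so genes found with them are lower in it by that choice. Larger ratios against it are therefore a description and add no support. Of 6316 genes with enough UMIs (at least 20 CPM in 1 kind of barcode and 100 UMIs over both, in each library), 38 (0.602%) were at least 2-fold higher in pericytes in both libraries and 326 (5.16%) at least 2-fold lower. Against the smooth muscle barcodes without pericyte UMIs, 338 were higher. Log2 ratios below have a pseudocount of 1 CPM, and their intervals come from the counts alone.

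Receptors and surface proteins were among the genes furthest above smooth muscle barcodes. Agtr1a (ENSMUSG00000049115), an angiotensin II receptor, was at 231 CPM in pericytes and 60.2 CPM in smooth muscle barcodes of the WT library, and at 188 and 78.3 CPM in the KO library. The log2 ratios were 1.93 (interval 1.60 to 2.27) and 1.25 (1.02 to 1.49), or 5.91 and 4.86 against the smooth muscle barcodes without pericyte UMIs. Fap, a serine protease of the cell surface, was at 324 and 108 CPM, then 297 and 124 CPM, with log2 ratios of 1.58 and 1.25. Its level in all other kept barcodes was 130 and 56.4 CPM. Enpp1, which makes pyrophosphate outside the cell, had log2 ratios of 1.77 and 1.29. Pericytes were thus the higher group for these genes in both libraries. The larger ratios against smooth muscle barcodes without pericyte UMIs follow in part from how that set was chosen.

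Genes of signalling and metabolism stood beside them. Pde7b, a phosphodiesterase that breaks down cyclic AMP, was at 624 and 197 CPM in the WT library and 1282 and 492 CPM in the KO library. Its log2 ratios were 1.66 (1.47 to 1.86) and 1.38 (1.29 to 1.47). G0s2, an inhibitor of the triglyceride lipase of fat droplets, had log2 ratios of 1.68 and 1.37. Nostrin, known to bind endothelial nitric oxide synthase, was at 107 and 44.9 CPM, then 154 and 62.3 CPM, and at 14.2 and 12.5 CPM in the other kept barcodes. Its log2 ratios of 1.24 and 1.29 became 6.19 and 6.24 against the smooth muscle barcodes without pericyte UMIs. Its level there was near the pseudocount of 1 CPM, so the size of these ratios depends on the pseudocount. Zmat4, Vstm4, Ifi30, Zfp804b and Ttyh2 completed the genes furthest above, with log2 ratios from 1.25 to 1.88.

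Ccl2, a chemokine that recruits monocytes, was furthest above in the WT library, at 149 CPM in pericytes and 14.2 CPM in smooth muscle barcodes. In the KO library it was at 352 and 113 CPM. The log2 ratios were 3.30 (2.87 to 3.92) and 1.63 (1.47 to 1.81). A single barcode held 16.9% and 33.4% of the Ccl2 UMIs of the pericytes.

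**Figure D3:**
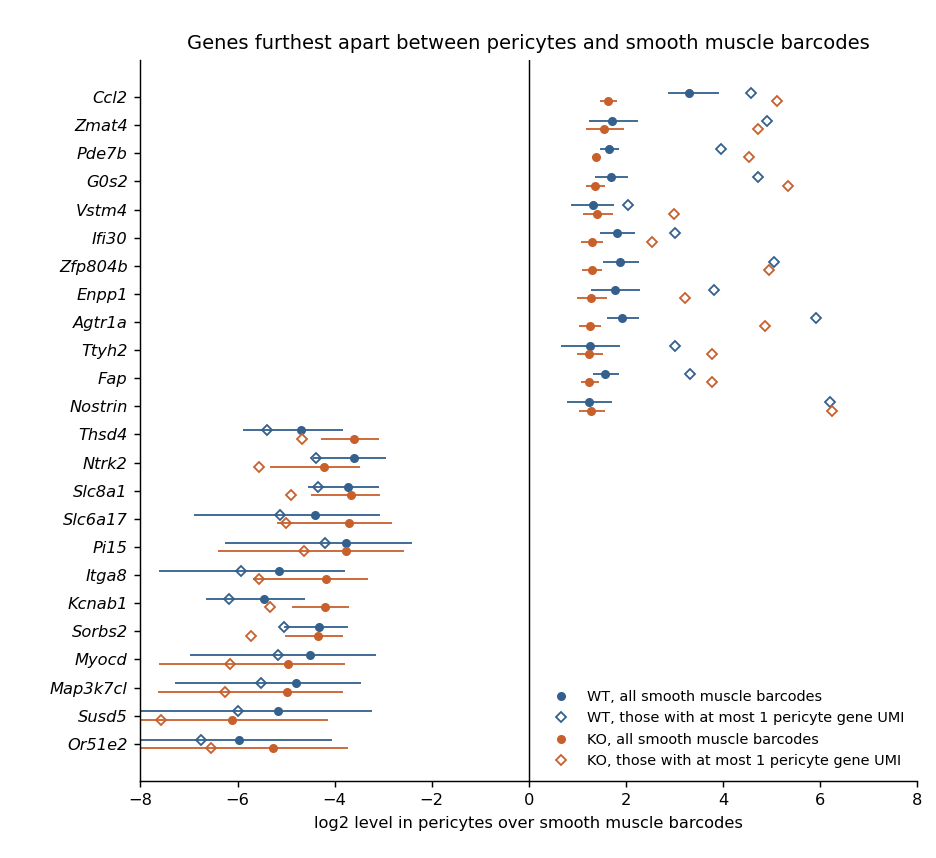
Log2 level in pericytes over smooth muscle barcodes (x axis) for the 12 genes furthest above and the 12 furthest below, by library, with 95% counting intervals (drawn to -8 at most). Diamonds use only smooth muscle barcodes with at most 1 pericyte gene UMI, a choice that by itself lowers genes found with the pericyte genes. Agtr1a moves from 1.93 and 1.25 to 5.91 and 4.86, and every gene keeps its side.

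The genes furthest below had from 0 to 25 UMIs in the pericytes of a library. Myocd, the coactivator that drives smooth muscle genes, had 3 UMIs in pericytes of each library, 6.31 and 3.18 CPM, against 164 and 129 CPM in smooth muscle barcodes. The log2 ratios were -4.50 (-6.98 to -3.15) and -4.96 (-7.62 to -3.80). Itga8, an integrin subunit, was at 6.31 and 7.42 CPM, against 257 and 152 CPM. Kcnab1, a potassium channel subunit, was at 18.9 and 26.5 CPM, against 874 and 507 CPM, and Slc8a1, the sodium-calcium exchanger, at 35.7 and 19.1 CPM, against 484.5 and 254 CPM. Sorbs2, Ntrk2 and Thsd4 had log2 ratios between -4.69 and -3.59. Slc6a17 had 3 and 7 UMIs in pericytes, Map3k7cl and Pi15 had 3 in each library, Or51e2 had 1 in each, and Susd5 had 1 and 0. Pericytes were the lower group for all 12 in both libraries.

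Some smooth muscle genes were not found in pericytes. Cnn1, Ryr2 (a calcium release channel), Kcnk3 (a potassium channel) and P2rx1 (an ATP receptor) had 0 UMIs in pericytes of both libraries. The limit that a count of 0 allows, 3 UMIs over the group, is 6.31 CPM in the WT library and 3.18 CPM in the KO library. Against smooth muscle levels of 129 and 122 CPM, Cnn1 was at least 20.4-fold and 38.2-fold lower. Ryr2 was at least 18.9-fold and 25.5-fold lower, Kcnk3 at least 5.41-fold and 6.40-fold, and P2rx1 at least 4.98-fold and 6.49-fold. A 1.5-fold step was used for gene lists, which 271 of 6316 genes (4.29%) passed upward in both libraries and 572 (9.06%) downward.

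Of the contractile list, 29 genes could be compared, 21 were at least 1.5-fold lower in pericytes in both libraries and 0 higher, with list medians of -1.67 and -1.38 (log2) against all-gene medians of 0.06 and 0.02. Cnn1 stays below these medians at its bound, so they do not change with it. Acta2 was at 702 and 731 CPM in pericytes, against 5006 and 3924 CPM in smooth muscle barcodes. Tagln, encoding transgelin, was at 387 and 739 CPM, against 3729 and 3228 CPM. Cald1 (caldesmon) had log2 ratios of -0.15 and -0.12 and Des (desmin) of -0.13 and -0.35, while Flna (filamin A) had -1.84 and -1.38. Of the channel and calcium list, 9 of 24 genes were at least 1.5-fold lower and 0 higher. Among them Kcnma1, a large potassium channel, was at 14.7 and 3.18 CPM in pericytes, against 277 and 126 CPM. The calcium store protein gene Casq2 was not among them, at log2 ratios of 0.27 and -0.41.

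Of the pericyte list outside the rule, 8 of 23 genes compared were at least 1.5-fold higher in both libraries. Among them were Rgs5, Pdgfrb, Vtn (vitronectin), Steap4 (a metalloreductase), Art3, the transcription factor gene Tbx18 and Agtr1a, and only Kcnk3 was lower. Pdgfrb was at 889 and 864 CPM in pericytes, against 352 and 475 CPM, with log2 ratios of 1.34 (1.18 to 1.495) and 0.86 (0.76 to 0.97). Vtn was at 1249 and 771 CPM, against 403 and 430 CPM, with log2 ratios of 1.63 and 0.84. Against the smooth muscle barcodes without pericyte UMIs these ratios were 2.33 and 2.04 for Pdgfrb and 3.99 and 3.98 for Vtn. The proteoglycan gene Cspg4, which encodes the antigen NG2, and Notch3 did not separate the groups, with log2 ratios of -0.10 and -0.31 for Cspg4 and -0.08 and -0.11 for Notch3. Both genes were thus found in both mural sets.

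Matrix genes, secreted factors and receptors were compared with smooth muscle barcodes in the same way. Of 20 basement membrane genes compared, 4 were at least 1.5-fold higher in both libraries, namely Lama2, Lamb1, Nid1 and Sparc, and 5 were lower, namely Col4a5, Col18a1, Lama5, Lamb2 and Fbln5. Lamb1, a laminin chain, was at 132 CPM in pericytes of both libraries, against 37.3 and 58.2 CPM, and Nid1 (nidogen) was at 410 and 495 CPM, against 166 and 252 CPM. Of 20 interstitial matrix genes compared, 1 was higher (Dcn, with 58.7% and 42.1% of its pericyte UMIs in 1 barcode) and 2 were lower (Eln and Lox), beside 4.29% and 9.06% of all genes. Of 17 chemokine and cytokine genes, Ccl2, Cxcl12 and Il34 were higher and 4 were lower. Cxcl12, a chemokine that retains leukocytes and progenitors, was at 1243 and 684 CPM, against 501 and 442 CPM. Of 15 vasoactive genes compared, Ednrb (an endothelin receptor) and Ptger4 (a prostaglandin E2 receptor) were higher, and Adra1a, Ramp1, P2rx1, S1pr1 and Rgs2 were lower. Ednrb was at 1373 and 2284 CPM, against 582 and 1446 CPM, and Adra1a, an adrenergic receptor gene, at 33.6 and 11.7 CPM, against 186 and 103 CPM.

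The promoter windows of these genes were searched for 8 motifs on both strands, in 32851 windows of 300 bases from 250 before to 50 after the start. Of all windows, 25.6% held TGGGAA, 11.2% held the GATA-type motif AGATAA, 72.3% held the E-box CANNTG and 14.7% held the TEAD motif GGAATG. The TATA motif TATAAA was in 13.6%, the CArG box of serum response factor in 1.63%, the MEF2 site in 0.557% and an NF-kappa-B site in 0.411%. TGGGAA can overlap GGAATG, as it does in Abcc9 and Vtn. Of the 38 genes at least 2-fold higher in pericytes, 27 matched a window by symbol, and 13 of these (48.1%) held TGGGAA. Of the 326 lower genes, 246 matched and 82 (33.3%) held it, and among all genes compared 1298 of 5025 (25.8%) did. The shares of other motifs were also unequal. GGAATG was in 29.6% of the higher genes and 14.3% of all genes compared, CANNTG in 77.8% and 63.7%, and AGATAA in 11.1% and 6.75%. TATAAA was in 7.41% of the higher genes, 14.6% of the lower genes and 9.15% of all genes compared. Among the lower genes the MEF2 site was in 2.44%, against 0.597% of all genes compared. A match of letters is a description of these windows and not a site of binding.

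The libraries were compared next within pericytes, the barcodes chosen by the same rule in each library. Of 2979 genes that reached 20 CPM in either library and 100 UMIs in the 2 together, 72 (2.42%) were at least 2-fold higher in the KO library and 43 (1.44%) at least 2-fold lower. The median over all genes compared was 0.05 on the log2 scale. Of these 115 genes, 107 had the same sign in smooth muscle barcodes and 19 were also 2-fold apart there. In the other kept barcodes, 89 had the same sign. That set is a mixture of cell types, and the mixture differed between the libraries. FAP barcodes, chosen by Pdgfra, were 11.4% and 3.89% of kept barcodes (WT, then KO). Endothelial barcodes, chosen by Cdh5, were 24.2% and 35.4%. Smooth muscle barcodes differed in make-up too, with at least 3 UMIs of the pericyte genes of the rule in 36.3% and 60.0% (WT, then KO). Depth, cell mix and level cannot be told apart in the ratios given for either set below. A single barcode held over 20% of a library's UMIs for 32 of the 115. The counts of 107, 19, 89 and 32 were not made over all 2979 genes, so no excess is read from them.

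The 10 genes furthest above in the KO library were 9 genes of fast myofibres and Thbs4, a tenocyte marker. In the WT library each was more than 5 times as high in the other kept barcodes as in pericytes, for Atp2a1 242 against 10.5 CPM. The naming rule leaves out genes that high in both libraries, so these genes passed it only through the KO library. Atp2a1, the calcium pump of fast fibres, read 10.5 CPM in the WT library against 216 CPM in the KO library, for a log2 ratio of 4.24 (3.12 to 6.001), with 47.1% of the UMIs of the latter in 1 barcode. Tnni2, Ckm, Acta1, Myl1, Tnnc2, Tnnt3, Pvalb and Myh4 had log2 ratios from 2.39 to 3.48. Without the pericytes that hold at least 1% of their UMIs from another class (187 and 212 left), those of Ckm and Acta1 were -0.04 each and that of Tnni2 was 0.87, and that of Atp2a1 was 1.39. Thbs4 had a log2 ratio of 2.35, but 63.6% and 41.6% of its UMIs were in 1 barcode of each library, and the ratio was -0.60 after thinning. The ratios of these genes were thus smaller or reversed once those barcodes were left out or thinned. Ckm, Acta1, Tnni2, Tnnt3, Pvalb, Myh4 and Thbs4 are themselves among the markers that chose the barcodes left out. Their smaller ratios without those barcodes follow in part from that choice and are a description only.

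Of the genes furthest below, most did not rest on 1 barcode. Htra1, a secreted protease that cleaves IGF-binding proteins, read 254 CPM in the WT library against 86.9 CPM in the KO library, for a log2 ratio of -1.54 (-1.97 to -1.13). Over the alternatives it lay between -1.67 and -0.92, and it was -0.30 in smooth muscle barcodes. Casq2, a calcium-binding protein of the internal store, read 330 and 128 CPM (WT, then KO), for a log2 ratio of -1.36 (-1.72 to -1.01), with -0.68 in smooth muscle barcodes. Igfbp5, an IGF-binding protein, read 305 and 127 CPM (WT, then KO), for a log2 ratio of -1.25 (-1.62 to -0.90), with -1.17 in smooth muscle barcodes and -1.88 in the other kept barcodes.

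Igfbp5 thus stood lower in the KO library in all 3 sets of barcodes, although the make-up of the smooth muscle and other kept barcodes differed between the libraries. Inpp4b, a phosphoinositide phosphatase, read 999 and 484 CPM (WT, then KO), for a log2 ratio of -1.04 (-1.23 to -0.86). Slc24a3 had a log2 ratio of -1.12 and Specc1 of -1.06. Iigp1, an interferon-induced GTPase, had a log2 ratio of -1.11 that lay between -1.91 and -0.29 over the alternatives. Col3a1, a fibrillar collagen chain, read 360 and 177 CPM (WT, then KO), for a log2 ratio of -1.02. Cxcl1, a chemokine for neutrophils, read 728 and 362.5 CPM (WT, then KO), for a log2 ratio of -1.003 that was -0.24 with the wider gate, and 26.0% of its UMIs in the WT library were in 1 barcode. The last of these genes thus depended on the gate and on few barcodes, while Inpp4b, Slc24a3, Specc1, Casq2 and Igfbp5 were at -0.72 or lower under every alternative run.

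The IGF axis is the subject of the series. Igf1 (ENSMUSG00000020053), the growth factor itself, had 4 UMIs in pericytes of each library, 8.41 CPM (2.29 to 21.5) and 4.24 CPM (1.16 to 10.9). In FAP barcodes, chosen by Pdgfra, it was at 399 and 402 CPM, and in smooth muscle barcodes at 7.12 and 8.24 CPM. Of 24 genes of the axis, 13 could be compared. At least 1.5-fold differences, which 272 of 2979 genes (9.13%) passed upward and 216 (7.25%) downward, were seen for 2 genes upward and 2 downward, with a list median of -0.03.

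Igf1r (ENSMUSG00000005533), the receptor of IGF-I, was at 185 CPM in the WT library (88 UMIs) and 411 CPM in the KO library (388 UMIs). The log2 ratio was 1.15 (0.82 to 1.503), and between 0.75 and 1.32 over the alternatives. In smooth muscle barcodes it read 275 and 401 CPM (WT, then KO), for a log2 ratio of 0.54 (0.45 to 0.64), and in the other kept barcodes the ratio was 0.28. An Igf1r UMI was found in 27.1% and 59.5% of pericytes. After thinning to 1500 UMIs these shares were 23.0% (16.7 to 30.3%) and 38.4% (31.8 to 45.3%), and those of leukocyte barcodes were 18.1% and 31.8%. The receptor was thus higher in the KO library in pericytes, and in smooth muscle barcodes and the other kept barcodes, whose make-up differed between the libraries. The thinned share in leukocyte barcodes differed in the same direction, and whether the ratio in pericytes differs from the others was not tested.

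Insr, the insulin receptor, read 118 and 210 CPM (WT, then KO), for a log2 ratio of 0.83 (0.40 to 1.29), against 0.34 in smooth muscle barcodes. Irs2, an adaptor of both receptors, read 107 and 157 CPM (WT, then KO), for a log2 ratio of 0.54 (0.08 to 1.04). Irs1 had a ratio of 0.50 but lay between -0.59 and 1.15 over the alternatives, and 20.4% of its UMIs in the KO library were in 1 barcode. The binding protein genes Igfbp7 and Igfbp4 had log2 ratios of -0.03 and -0.30. Igf2r, Grb10, Pik3r1, Foxo1 and Foxo3 lay between -0.37 and 0.08.

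Pericyte genes outside the rule were compared between the libraries as a list. Of 28 genes, 21 could be compared, 6 were at least 1.5-fold lower and 0 higher. Over all genes compared, 7.25% were at least 1.5-fold lower and 9.13% higher. Each list count below stands beside these shares, and no count was tested against them. The list median was -0.43, against 0.05 over all genes, -0.17 for the list in smooth muscle barcodes and -0.26 in the other kept barcodes. It was -0.26 after thinning, -0.38 with the wider gate and -0.38 without barcodes that hold another class. The 16 pericytes of the KO library with few pericyte list UMIs are part of this median, and their part in it was not tested. The fixed minimum for the pericyte genes of the rule is laxer in a deeper library. Pericytes had medians of 2275 and 3682.5 UMIs (WT, then KO). A KO barcode could therefore pass with a lower level of those genes. Pericytes at exactly that minimum had Rgs5 at 7928 and 2277 CPM (WT, then KO). The part of this minimum in the list median was not tested.

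Vtn read 1249 and 771 CPM (WT, then KO), for a log2 ratio of -0.70 (-0.86 to -0.54), with 0.09 in smooth muscle barcodes and -0.63 in the other kept barcodes. Cox4i2, a subunit of cytochrome oxidase linked to hypoxia, read 345 and 178 CPM (WT, then KO), for a log2 ratio of -0.95 (-1.27 to -0.63) that was -0.43 after thinning. Art3 read 1154 and 633 CPM (WT, then KO), for a log2 ratio of -0.87 (-1.04 to -0.70). These 3 genes were lower in the KO library under every alternative run. The transcription factor gene Foxs1 had a log2 ratio of -0.87, the sphingosine phosphate receptor gene S1pr3 one of -0.81 and the endothelin receptor gene Ednra one of -0.72. Pdgfrb, the receptor that recruits pericytes, read 889 and 864 CPM (WT, then KO), for a log2 ratio of -0.04 (-0.21 to 0.13), and Notch3 had one of -0.29 (-0.53 to -0.05). The ratio of Rgs5 was -0.24 (-0.29 to -0.20), between -0.29 and -0.07 over the alternatives. Mcam and Heyl had ratios of 0.25 and 0.14.

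**Figure D4:**
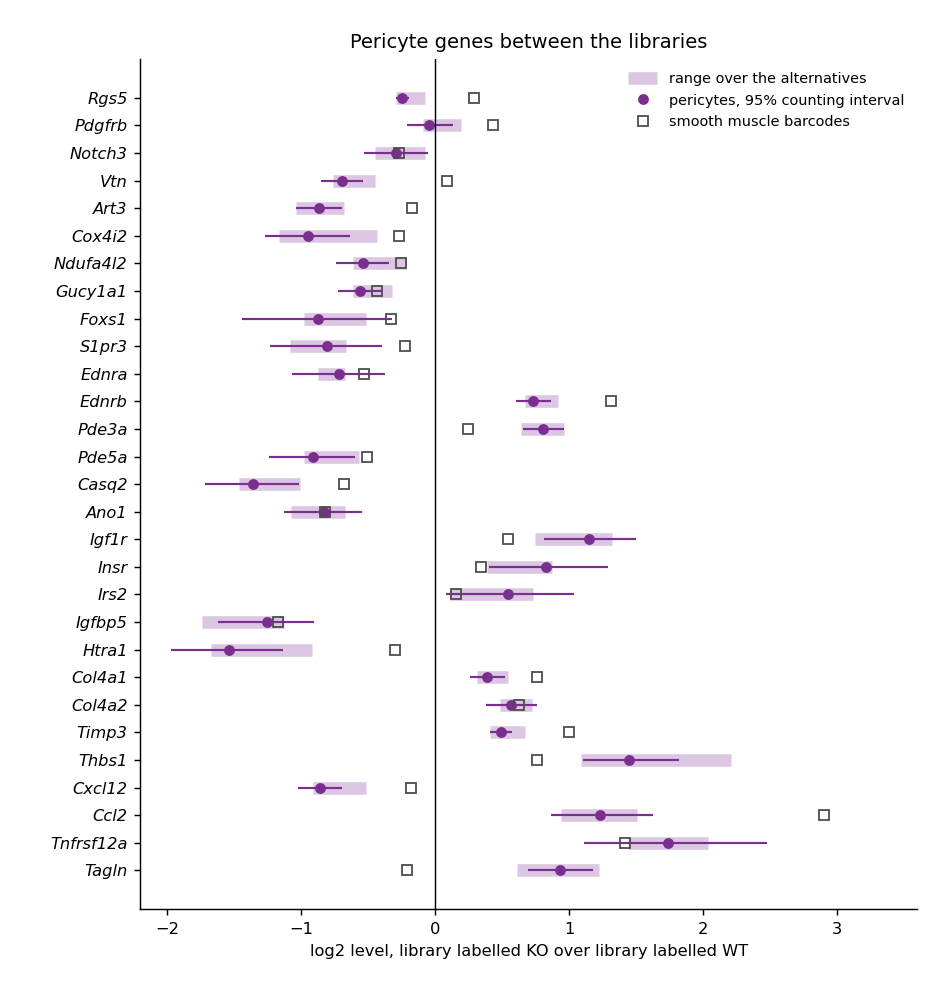
Log2 level in the KO library over the WT library (x axis) for 29 genes in pericytes (purple points with 95% counting intervals) and in smooth muscle barcodes (open squares). Pale bars span the alternatives. Igf1r lies at 1.15 in pericytes and 0.54 in smooth muscle barcodes, Vtn at -0.70 and 0.09.

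Contraction and vasoactive signalling genes were mixed. Of 20 contractile genes compared, Tagln, Smtn, Tpm1 and Csrp1 were at least 1.5-fold higher in the KO library and Myl9 was lower, with a list median of 0.04. Among all genes compared, 9.13% were higher and 7.25% lower by that step. Tagln read 387 and 739 CPM (WT, then KO), for a log2 ratio of 0.93 (0.70 to 1.18), and Acta2 read 702 and 731 CPM (WT, then KO), for a log2 ratio of 0.06. A Tagln UMI was found in 31.2% and 50.9% of pericytes, or 25.5% and 35.5% after thinning, with 1.25% and 1.96% of leukocyte barcodes. Tpm1, which myofibres also express, had a log2 ratio of 0.85 that was 0.11 without barcodes that hold another class.

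Among vasoactive genes, Ednrb read 1373 and 2284 CPM (WT, then KO), for a log2 ratio of 0.73 (0.61 to 0.86), while Ednra was at 271 and 164 CPM. The 2 endothelin receptors thus stood apart in opposite directions, and both kept their direction under every alternative run. The split was not seen in pericytes alone, although the make-up of the smooth muscle and other kept barcodes differed between the libraries. In smooth muscle barcodes the log2 ratios were 1.31 for Ednrb and -0.53 for Ednra, and in the other kept barcodes 1.17 and -0.71. The phosphodiesterase genes were split as well. Pde3a read 967 and 1694 CPM (WT, then KO), for a log2 ratio of 0.81 (0.66 to 0.96), and Pde5a, which breaks down cyclic GMP, at 334 and 177 CPM, for a log2 ratio of -0.91 (-1.24 to -0.59). Pde4d had a ratio of 1.96, but it was 0.10 after thinning and 0.63 with the wider gate. Gucy1a1 and Gucy1b1, the subunits of the nitric oxide receptor, had ratios of -0.56 (-0.72 to -0.40) and -0.41 (-0.60 to -0.22). Of 12 channel genes, Casq2, Kcnq5 and the chloride channel gene Ano1 were at least 1.5-fold lower and 0 higher, with Ano1 at 395 and 222 CPM, for a log2 ratio of -0.83 in pericytes and -0.82 in smooth muscle barcodes.

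Of 15 basement membrane genes, 0 were 1.5-fold apart in either direction, with a median of 0.00. Col4a1 was at 1421 and 1861 CPM and Col4a2 at 631 and 936 CPM, with log2 ratios of 0.39 (0.26 to 0.52) and 0.57 (0.38 to 0.76). Timp3, a protease inhibitor bound to matrix, read 3354 and 4716 CPM (WT, then KO), for a log2 ratio of 0.49 (0.41 to 0.58). Of 15 interstitial matrix genes, Col1a2, Col3a1, Col6a1, Col6a2 and Pcolce were at least 1.5-fold lower and Fn1 and Tnc higher, with a median of -0.23. In the other kept barcodes, whose cell mix differed between the libraries, the median of these genes was -1.17. For Col1a2, 44.0% of the UMIs of the KO library were in 1 barcode, and for Tnc 83.2%. Fn1 had an interval of 0.09 to 1.51.

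Of 18 genes of the TGF-beta and BMP system, 4 were at least 1.5-fold higher, Thbs1, Ccn2 and Bmpr1a among them, and 0 lower, with a median of 0.26. The shares over all genes were 9.13% higher and 7.25% lower. Thbs1, a matrix protein that activates TGF-beta, read 166 and 455 CPM (WT, then KO), for a log2 ratio of 1.45 (1.10 to 1.82) with 21.5% of its UMIs in the WT library in 1 barcode. Ccn2 had a log2 ratio of 1.79 that was 0.74 without barcodes that hold another class, with 26.7% and 26.4% of its UMIs in 1 barcode of each library. Bmp5, a ligand of the system, had a log2 ratio of -0.58 (-0.91 to -0.26). Of 8 Notch genes, the ligand gene Jag1 (-0.62) and the coactivator gene Maml2 (-0.66) were at least 1.5-fold lower and Notch1 (0.62) higher, with a median of -0.30. The target Hes1 read 889 and 609.5 CPM (WT, then KO), for a log2 ratio of -0.54 that lay between -0.74 and -0.01 over the alternatives.

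Inflammatory genes did not shift together. Of 11 chemokine and cytokine genes, Ccl2 and Tnfrsf12a were at least 1.5-fold higher and Cxcl1, Cxcl12 and Il6 lower, with a median of -0.25. All genes compared gave 9.13% higher and 7.25% lower. Ccl2 read 149 and 352 CPM (WT, then KO), for a log2 ratio of 1.23 (0.86 to 1.63) in pericytes and 2.90 in smooth muscle barcodes. Tnfrsf12a, the receptor of TWEAK, read 46.3 and 157 CPM (WT, then KO), for a log2 ratio of 1.74 (1.11 to 2.48), with 1.42 in smooth muscle barcodes and 1.10 in the others. Cxcl12 read 1243 and 684 CPM (WT, then KO), for a log2 ratio of -0.86 (-1.03 to -0.70), with -0.18 in smooth muscle barcodes. Of 10 interferon genes, Iigp1 and Ifitm3 were lower and Rnf213 was higher, with a median of 0.06. Ifitm3 read 772 and 491 CPM (WT, then KO), for a log2 ratio of -0.65 (-0.85 to -0.45).

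Genes that respond to dissociation were abundant in both libraries. Of 30 compared, Dusp1, Klf2, Klf4, Nfkbia and Maff were at least 1.5-fold higher in the KO library and 0 lower, with a median of 0.13 in pericytes and 0.41 in smooth muscle barcodes. Across all genes compared, 9.13% were higher and 7.25% lower by this step. Fos read 5051 and 5326 CPM (WT, then KO), for a log2 ratio of 0.08, and Jun at 3053 and 2721 CPM, a ratio of -0.17. Of 14 genes of the unfolded protein response, 1 was higher (Dnajb9), with a median of 0.03. Respiratory and hypoxia-linked genes had a median of -0.13 over 15 genes, with Uqcr11, Atp5e, Cox6c and Ndufa13 at least 1.5-fold lower and Ldha higher. Their log2 ratios in pericytes were -0.98, -0.80, -0.79 and -0.65, and in smooth muscle barcodes -0.98, -0.89, -0.61 and -0.68. In the other kept barcodes they were -0.67, -0.88, -0.60 and -0.74, so these 4 genes stood lower in the KO library in all 3 sets of barcodes.

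The last lists held few genes with enough UMIs. Of 5 PDGF, angiopoietin and VEGF genes compared, Flt1, a VEGF receptor of endothelial cells, was higher, at 282 and 526 CPM. Its log2 ratio of 0.90 became -0.02 without pericytes with more than 2 UMIs of Pecam1, Egfl7, Kdr and Flt1, an alternative that selects on Flt1 itself. Of 6 lipid and progenitor-linked genes, Lpl and Pparg were higher and 0 lower, and the interval of Pparg (-0.05 to 1.28) includes 0. Fabp4, a fatty acid carrier of capillary endothelium, was at 702 and 649 CPM in pericytes, and Cd36 at 1461 and 1302 CPM. Across the 16 lists, the median furthest from 0 in pericytes was that of the pericyte genes. The rule's fixed minimum for pericyte genes is laxer in the deeper KO library, and its part in that median was not tested.

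**Figure D5:**
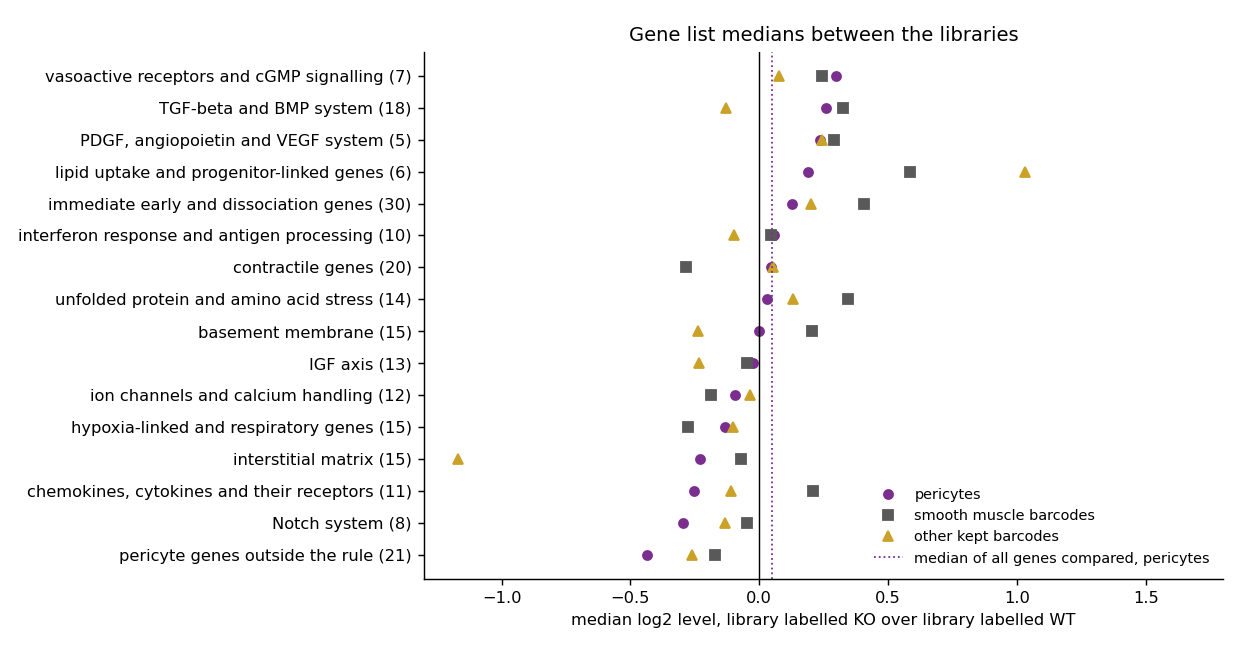
Median log2 level in the KO library over the WT library (x axis) for the 16 gene lists, with the number of genes compared in brackets, in pericytes, smooth muscle barcodes and the other kept barcodes. The dotted line is the median of all genes compared in pericytes, 0.05. Pericyte genes outside the rule lie at -0.43, -0.17 and -0.26.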

How the data were processed

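Single-cell RNA of 2 libraries (10x Genomics GEM-X 3' v4) was analysed, 1 per genotype. Per the submitters' processing notes, reads were counted with Cell Ranger 9.0.0 on build mm10. Per the file headers, version 8.0.0 made the WT matrix and version 9.0.0 the KO matrix. The deposited values are raw UMI counts per gene and barcode over 33696 features, not normalized by the authors, and 0 columns were left unmapped. Pericyte and smooth muscle barcodes followed the rule in the text, and the UMIs of each kind were added up within a library and expressed as CPM. Ratios have a pseudocount of 1 CPM and exact conditional binomial intervals.

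No test was run, since cells are not replicates. The members and the gene lists were chosen with earlier results of these data known. Genes named are those of the rule, the 10 largest and 10 smallest ratios between libraries (at least 50 CPM in 1 library and 200 UMIs over both), the 12 genes furthest each way between pericytes and smooth muscle barcodes, up to 6 members of each list and the IGF genes at 20 CPM or more. The ranked names leave out predicted, haemoglobin, mitochondrial and ribosomal protein genes. They also leave out any gene more than 5 times as high in the other kept barcodes as in pericytes in both libraries. Further list members named for a count, and genes at 0, were chosen after their values were seen. A few genes that these rules name are not reported here.

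Doublets were called with Scrublet in scanpy 1.11.5 and kept in the main values. Sums and intervals used Python 3.11.15, numpy 2.4.6, scipy 1.17.1 and pandas 2.3.3. In counts simulated for the contrast between libraries in pericytes, the 2-fold step called 75 of 75 genes altered 3-fold, 4 of 88 altered 1.5-fold and 0 of 2776 unaltered genes. Both libraries were simulated from 1 pooled profile with counting error alone. Variation between barcodes or libraries and RNA of other cells were left out. The simulation therefore cannot tell how many of the genes called in the data are false calls. Alternatives changed the gates, the depth, the scaling, the floors and the pseudocount, and removed doublets. A wider pericyte gate, the removal of barcodes with RNA of another class and the smooth muscle barcodes without pericyte UMIs were added after seeing the data.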

Additional observations from a re-analysis of the deposited data

Results flagged for a closer look

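Of 234 list and named genes with enough UMIs, 7 differed between the libraries in opposite directions in pericytes and in smooth muscle barcodes. The difference between pericytes and smooth muscle barcodes was not tested. The make-up of the smooth muscle barcodes also differed between the libraries. At least 3 UMIs of the pericyte genes of the rule were found in 36.3% of them in the WT library and 60.0% in the KO library. The part of this in the opposite signs was not tested. Vtn had a log2 ratio (KO library over WT library) of -0.70 in pericytes and 0.09 in smooth muscle barcodes. Tagln had 0.93 and -0.21, and Tpm1 had 0.85 and -0.25. Cxcl1 had -1.003 and 0.21, Fn1 had 0.76 and -0.54, and Myh4 had 2.39 and -0.49. Without barcodes holding 1% of another class, Myh4 had -1.89 in pericytes, the sign it had in smooth muscle barcodes, and Tpm1 had 0.11. Myh4 is itself among the markers that chose those barcodes, so its change follows in part from that choice. A single barcode held 56.5% of the Myh4 UMIs in pericytes of the KO library. With the wider pericyte gate Cxcl1 had -0.24. Tnc had 1.802 and -1.03, with 50% and 83.2% of its pericyte UMIs in 1 barcode of each library.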

How the results depend on the processing

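No paired analysis was possible because each genotype has 1 library. Of the values recomputed for the shares, ratios and counts, 78 stayed within their counting interval or 1.5 times and 41 moved. Asking for 5 pericyte gene UMIs gave shares of 1.54% and 1.12% (WT and KO), 0.154 and 0.120 pericytes per smooth muscle barcode, and 3 lists over 0.2 from the median of all genes. Asking for no Myh11 or Pln UMI gave 0.781% and 0.606%, 0.0780 and 0.0652 per smooth muscle barcode, and 36 genes higher and 21 lower in the KO library. Allowing at most 2 endothelial UMIs gave 0.861% and 0.0926 in the KO library, 37 genes higher there, and 66 genes higher in pericytes than in smooth muscle barcodes. Thinning to 2000 UMIs left out the shallower barcodes. It gave 0.262 per smooth muscle barcode in the WT library, and 3.11% and 0.585 in the KO library. With it 31 genes were higher and 23 lower in the KO library, and 96 were higher in pericytes than in smooth muscle barcodes. That count was 25 with median-ratio scaling and 21 with the mean of per-barcode CPM. A floor of 5 CPM and 25 UMIs gave 360 genes higher and 323 lower between libraries and 82 higher and 597 lower in pericytes, and a floor of 100 CPM gave 122 lower. A smooth muscle gate of 8 UMIs gave 0.318 and 0.237 per smooth muscle barcode and 120 genes higher in pericytes. The wider pericyte gate gave 5.51% and 5.79%, 0.677 and 0.929 per smooth muscle barcode, 146 genes lower between libraries, and 245 higher and 494 lower in pericytes. Smooth muscle barcodes without pericyte UMIs gave 0.379 and 0.495 and 338 higher. Thbs4 turned to -0.60 after thinning. Without barcodes holding 1% of another class, Ckm turned to -0.037, Acta1 to -0.043, Myl1 to -0.24, Tnnc2 to -0.35, Pvalb to -0.037 and Myh4 to -1.89. Ckm, Acta1, Pvalb and Myh4 are among the markers that chose those barcodes, so their change follows in part from that choice. The cause was not tested, apart from the smaller or larger sets of barcodes and genes that each alternative makes. With 475591 and 943422 UMIs in pericytes, a count of 0 allows up to 6.31 and 3.18 CPM, and 1 library per genotype leaves every difference without a replicate check.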
